A study of Mus musculus with 12 samples.

Results

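The genes described here are 8 transcription factor genes of mouse intestinal identity, Cdx1, Cdx2, Hnf4a, Hnf4g, Gata6, Foxa1, Foxa2 and Foxa3, out of 21853 protein-coding genes. They were taken by name, and every called peak of H3K4me3, H3K4me1, H3K27me3 and H3K9me3 that reached into the gene body or 5 kb on either side of it (the window) was collected. The set was chosen by the presence, position and width of these same peaks. The choice also named a strong H3K27me3 peak of Foxa2, in the villi list only. These values and the ranks of that peak are therefore given as a description, with no test. In all, 165 of the 169072 peaks of 8 lists lay in the 8 windows, which sum to 374139 bp.

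CDX1 and CDX2 are caudal-type homeobox factors, HNF4A and HNF4G are nuclear receptors that bind DNA as dimers, GATA6 is a zinc finger factor, and FOXA1, FOXA2 and FOXA3 are forkhead proteins that can bind their sites in closed chromatin. In the gut they act on shared enhancers and promoters of the epithelium, where dividing cells of the crypts give rise to the differentiated cells of the villi. H3K4me3 marks promoters that are active or held ready, H3K4me1 marks enhancers and the flanks of promoters, H3K27me3 is laid down by the Polycomb repressive complex PRC2, and H3K9me3 marks heterochromatin.

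Both groups were fractions of mouse small intestine, the crypts being freed with EDTA from tissue whose villi had first been scraped off with coverslips, and the labels give no genotype, strain, age or number of animals for either. ChIP-Rx (ChIP-seq with fly chromatin added to each sample as a reference) gave 1 library per fraction and modification, so no difference between crypts and villi has a replicate check. The study is about the clipping of the histone H3 tail and used these libraries to map H3 modifications across the genome in both fractions. The lists carry no read counts, which leaves the depth of the libraries unknown. The score of a peak (taken as the authors' −log10 p-value) served to rank peaks within 1 list and was not compared between lists. Promoter H3K4me3 peaks were present at 5 of 5 epithelial marker genes in both fractions, at 4 of 5 crypt cell markers in crypts and 3 in villi, and at 5 of 5 enterocyte markers in both. The H3K27me3 list was longer in villi, with 13797 peaks over 35.6 Mb, than in crypts, with 7611 peaks over 20.3 Mb.

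The RefSeq promoter table (GRCm38.p6, 250 bases before to 50 bases after a start) held 8 windows for 5 of the 8 genes, namely Cdx2, Hnf4a, Foxa1, Foxa2 and Foxa3. Cdx1, Hnf4g and Gata6 had no entry used here. All 8 windows are shown, since the cover by peaks is given for them at the gene in question. Each reads 5′ to 3′ along the gene, and capitals mark matches, searched on both strands, to short motifs of the FOXA, GATA, HNF4 and CDX families and of HNF1, a homeobox factor of gut and liver that is not among the 8 genes. The letters were TGTTTAC for FOXA, with GTTAAT for HNF1, then AGATAA for GATA factors, the core CAAAGT for HNF4 and finally TTTATG for CDX.
Foxa2 window 1, chr2:148046920-148047219, minus strand: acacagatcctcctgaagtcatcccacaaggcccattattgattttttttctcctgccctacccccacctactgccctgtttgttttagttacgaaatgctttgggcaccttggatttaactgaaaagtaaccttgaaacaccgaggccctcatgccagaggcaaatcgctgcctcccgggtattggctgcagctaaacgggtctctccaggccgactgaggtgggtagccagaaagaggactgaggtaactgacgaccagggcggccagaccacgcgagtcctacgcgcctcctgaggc
Foxa2 window 2, chr2:148045899-148046198, minus strand: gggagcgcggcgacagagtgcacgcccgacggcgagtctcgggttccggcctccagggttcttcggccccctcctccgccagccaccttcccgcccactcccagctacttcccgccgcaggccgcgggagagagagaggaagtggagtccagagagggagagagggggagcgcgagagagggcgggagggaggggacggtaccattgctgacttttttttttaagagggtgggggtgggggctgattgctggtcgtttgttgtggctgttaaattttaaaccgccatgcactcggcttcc
Foxa2 window 3, chr2:148045415-148045714, minus strand: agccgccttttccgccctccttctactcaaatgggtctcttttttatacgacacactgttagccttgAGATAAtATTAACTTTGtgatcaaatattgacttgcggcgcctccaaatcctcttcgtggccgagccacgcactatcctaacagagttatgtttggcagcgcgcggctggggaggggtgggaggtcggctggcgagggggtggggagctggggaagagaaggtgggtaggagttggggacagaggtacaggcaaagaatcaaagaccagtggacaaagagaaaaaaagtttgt
Foxa1, chr12:57546062-57546361, minus strand: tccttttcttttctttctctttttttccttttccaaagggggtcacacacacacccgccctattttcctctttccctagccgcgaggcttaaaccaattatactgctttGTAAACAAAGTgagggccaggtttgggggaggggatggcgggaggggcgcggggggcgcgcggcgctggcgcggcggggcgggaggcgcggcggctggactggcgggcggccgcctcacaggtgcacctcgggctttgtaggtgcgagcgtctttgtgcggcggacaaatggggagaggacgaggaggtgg
Foxa3, chr7:19023490-19023789, minus strand: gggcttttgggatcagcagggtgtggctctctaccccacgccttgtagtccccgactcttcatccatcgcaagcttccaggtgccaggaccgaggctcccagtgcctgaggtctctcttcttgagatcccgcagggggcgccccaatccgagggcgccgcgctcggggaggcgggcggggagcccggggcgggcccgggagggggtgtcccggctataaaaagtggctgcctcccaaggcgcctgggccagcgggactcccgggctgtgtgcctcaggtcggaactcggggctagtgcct
Hnf4a first start, chr2:163506607-163506906, plus strand: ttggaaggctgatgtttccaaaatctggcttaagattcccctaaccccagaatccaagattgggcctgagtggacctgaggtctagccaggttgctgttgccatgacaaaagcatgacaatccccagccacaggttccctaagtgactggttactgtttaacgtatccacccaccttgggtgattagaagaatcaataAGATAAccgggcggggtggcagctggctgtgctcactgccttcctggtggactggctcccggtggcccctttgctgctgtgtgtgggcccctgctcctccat
Hnf4a second start, chr2:163546905-163547204, plus strand: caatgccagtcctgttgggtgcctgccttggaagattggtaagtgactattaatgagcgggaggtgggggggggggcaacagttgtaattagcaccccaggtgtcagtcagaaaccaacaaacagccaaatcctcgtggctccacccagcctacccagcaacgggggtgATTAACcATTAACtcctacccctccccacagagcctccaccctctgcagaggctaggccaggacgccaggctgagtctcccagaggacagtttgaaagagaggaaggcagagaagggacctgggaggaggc
Cdx2, chr5:147307200-147307499, minus strand: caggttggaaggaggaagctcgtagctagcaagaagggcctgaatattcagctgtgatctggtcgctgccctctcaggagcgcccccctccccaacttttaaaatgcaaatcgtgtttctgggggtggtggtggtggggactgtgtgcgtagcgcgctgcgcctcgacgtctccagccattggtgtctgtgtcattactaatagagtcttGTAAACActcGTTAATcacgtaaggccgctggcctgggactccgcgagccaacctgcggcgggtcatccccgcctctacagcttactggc

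The 3 RefSeq windows of Foxa2 do not correspond one to one to the 3 coding start sites of the annotation used below. The first and the second hold 1 of those sites each, and the third holds none. The 5 motifs were chosen after earlier results were known, and a match is a description of letters only. TGTTTAC was found, on the reverse strand, in the windows of Cdx2 (from base 211) and Foxa1 (from base 110), against 3.65% of all 32851 promoter windows. GTTAAT was found once in Cdx2 (from base 221) and in 2 copies 7 bases apart at the second start of Hnf4a (from bases 170 and 177), against 7.10% of all windows. AGATAA stood at the first start of Hnf4a (from base 199), against 11.2%. CAAAGT stood in Foxa1 (from base 115, sharing its first bases with the FOXA match), against 14.4%. The third window of Foxa2 held AGATAA (from base 68) and, on the reverse strand, GTTAAT (from base 75) and CAAAGT (from base 79), the last 2 of which share letters. TTTATG, which 11.9% of all windows hold, was in none of the members' windows. The first and second windows of Foxa2 and the window of Foxa3 held none of the 5 motifs.

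All 8 genes had an H3K4me3 peak at a promoter (within 1 kb of the start site of a coding transcript) in crypts and in villi, where 57.7% and 57.9% of all protein-coding genes had one, and so all 8 had one in the window (all genes 63.2% and 63.5%). All 8 also had H3K4me1 in the window in both fractions (all genes 69.1% and 68.8%). H3K27me3 lay in the window of 1 gene in each fraction, Foxa2 (all genes 17.9% in crypts and 23.0% in villi), and at a promoter of none of the 8 in crypts (all genes 13.1%) and of Foxa2 alone in villi (all genes 16.1%). H3K9me3 was called in 1 window, that of Hnf4g in crypts, and in none in villi (all genes 3.89% and 3.11%, and 1.97% in crypts only), and at no member promoter (all genes 0.380% and 0.311%).

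**Figure D1:**
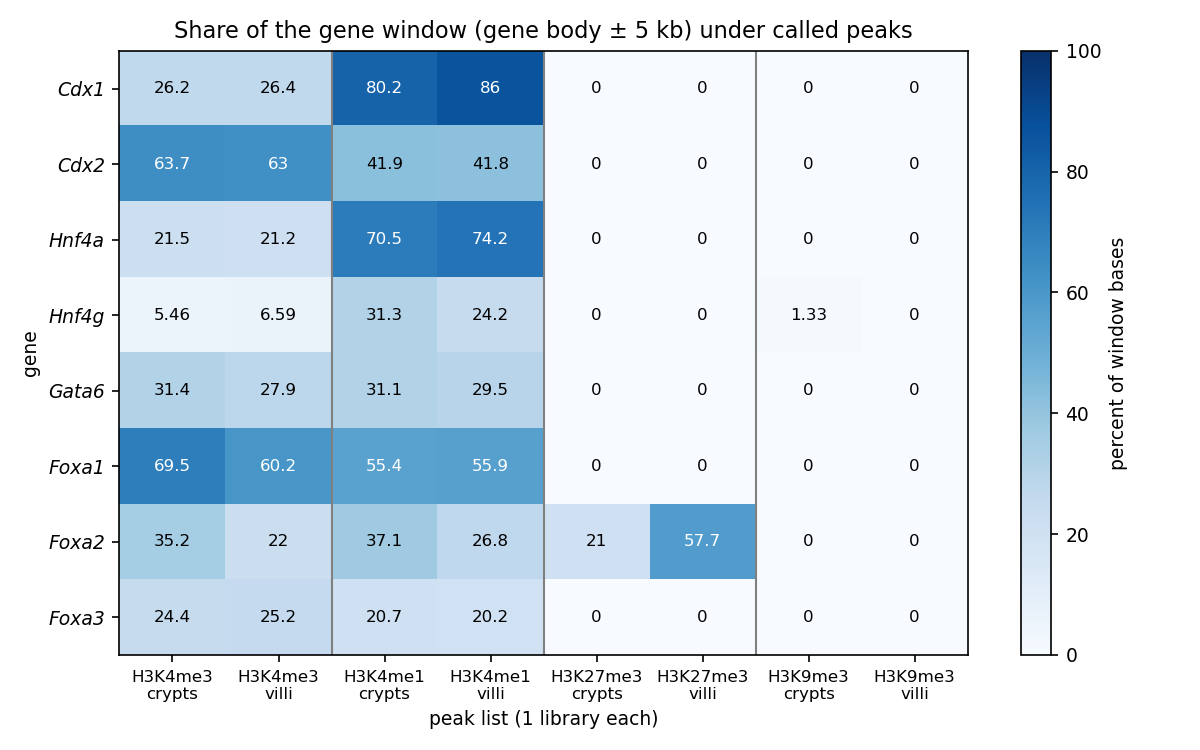
Percent of the bases of each gene window (gene body and 5 kb on either side) under called peaks, for 8 genes (rows) in 8 peak lists of 1 library each (columns). H3K4me3 covered from 5.46% (Hnf4g, crypts) to 69.5% (Foxa1, crypts), and H3K27me3 covered only Foxa2, 21.0% in crypts and 57.7% in villi.

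The active marks took up a large share of these windows. H3K4me3 covered a median of 28.8% of a window in crypts and 25.8% in villi, against 2.66% and 2.60% over all protein-coding genes. H3K4me1 covered a median of 39.5% and 35.7%, against 5.13% and 4.93%. Such cover was not particular to these genes. At the 5 epithelial markers the medians were 34.6% and 31.8% for H3K4me3 and 68.1% and 55.9% for H3K4me1. At 15 other transcription factors of the intestine and gut endoderm they were lower, 16.8% and 15.0% for H3K4me3 and 33.7% and 29.7% for H3K4me1. Cdx1 had the largest H3K4me1 cover of the 8 (80.2% in crypts and 86.0% in villi) and Foxa3 the smallest (20.7% and 20.2%). Cdx1, Hnf4a and Hnf4g had over 2 times as much of the window under H3K4me1 as under H3K4me3, whereas Cdx2, Foxa1 and Foxa3 had more under H3K4me3 in both fractions.

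Of the H3K4me3 peaks in the windows, 22 of 24 in crypts and 25 of 26 in villi overlapped a peak of the other list by at least 1 bp (all peaks 93.3% and 90.6%). Of the H3K4me1 peaks, 51 of 56 in crypts and 50 of 54 in villi did so (all peaks 81.7% and 82.1%). Counted in bases, the Jaccard index, the bases in both lists over the bases in either, was 0.861 for H3K4me3 and 0.744 for H3K4me1. The repressive marks gave 1 of 1 crypts and 1 of 3 villi peaks with a counterpart for H3K27me3 (all peaks 90.4% and 44.4%) and 0 of 1 crypts peaks for H3K9me3 (all peaks 39.4%, and 41.6% in villi). For H3K4me3 the members' shares were near those of all peaks, so recurrence of its peaks was not particular to these genes. For H3K27me3 at Foxa2 the index was 0.363.

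The promoter H3K4me3 peaks of 7 of the 8 genes were broad. Among the 12381 genes with such a peak in both fractions the median width of the widest was 1988 bp in crypts and 1893 bp in villi. In crypts Gata6 had the widest H3K4me3 peak of the whole list (13684 bp) and Cdx2 the sixth widest (10486 bp). Foxa1 (6504 bp), Hnf4a (5783 bp), Hnf4g (5217 bp), Cdx1 (5022 bp) and Foxa3 (4498 bp) followed, and the narrowest of these, that of Foxa3, was wider than 96.1% of the genes. Foxa2 stood apart with 2773 bp, wider than 77.9% of the genes. In villi the widths were 10371 bp for Cdx2, 9608 bp for Gata6, 6209 bp for Hnf4g, 5599 bp for Hnf4a, 4963 bp for Foxa1, 4609 bp for Foxa3, 4254 bp for Cdx1 and 2539 bp for Foxa2. The log2 ratio of villi over crypts width ranged from -0.51 (Gata6) to 0.25 (Hnf4g), with a median of -0.09 beside -0.04 over all 12381 genes. The lowest ratios, at Gata6 and Foxa1 (-0.39), set a crypts peak against the wider piece of a split villi peak. With peaks under 1 kb apart merged, the domains of crypts and villi were 13684 and 12509 bp at Gata6, and 12450 and 12469 bp at Foxa1. Neighbours in the order of widths, such as Hnf4a and Foxa1, cannot be ranked without replicates.

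**Figure D2:**
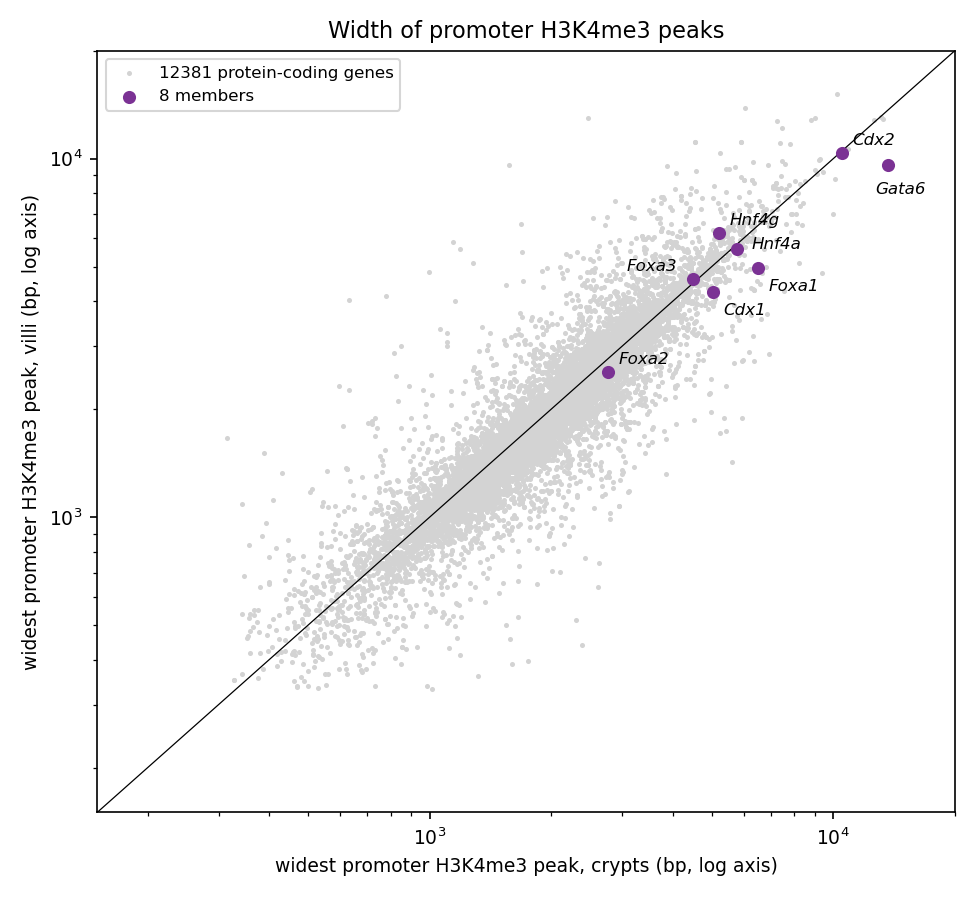
Width in bp of the widest promoter H3K4me3 peak in crypts (x axis) and villi (y axis), both on log axes, for 12381 protein-coding genes (grey) and the 8 members (purple), with the line of equal width. Cdx2 and Gata6 lie near the upper end with widths of 9608 to 13684 bp, and Foxa2 lies nearer the bulk with 2773 bp in crypts and 2539 bp in villi. For Gata6 and Foxa1 the villi width is that of the wider piece of a split peak.

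CDX2, which sets intestinal identity in the gut endoderm, is encoded on the minus strand at chr5:147300805-147307270. One H3K4me3 peak, 10486 bp wide in crypts (score 485) and 10371 bp wide in villi (score 403), ran across the whole gene and beyond both of its ends. The peaks differed little, with a Jaccard index of 0.986. H3K4me1 was called on both shoulders of that domain, as a peak of 3854 bp upstream and 3263 bp at the 3′ end in crypts, and of 3736 bp and 3377 bp in villi, and no H3K4me1 lay within 1 kb of the start site. The promoter window printed above was covered by H3K4me3 over 100% of its bases in both fractions and by H3K4me1 over 0%.

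CDX1, the paralogue that is also expressed along the crypt, is encoded on the minus strand at chr18:61018862-61036199. Its start site lay under H3K4me3 in both fractions, with a peak width of 5022 bp in crypts (score 364) and 4254 bp in villi (score 289). Further peaks lay in an intron (649 bp and 911 bp), downstream of the gene (804 bp and 1338 bp) and near the window's edge (1048 bp in each fraction). The last covers the start site of Slc6a7, a transporter gene, and cannot be assigned to Cdx1. The downstream peak was over 1.5-fold wider in villi, one of 2 such pairs among 19 member pairs of H3K4me3 (all pairs 4.24%), and 0 of the 19 were as much narrower (all pairs 4.18%). H3K4me1 formed 5 peaks in each fraction that lay on both sides of the start site and left it uncovered, the largest being 7716 bp in crypts and 7859 bp in villi inside the gene.

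**Figure D3:**
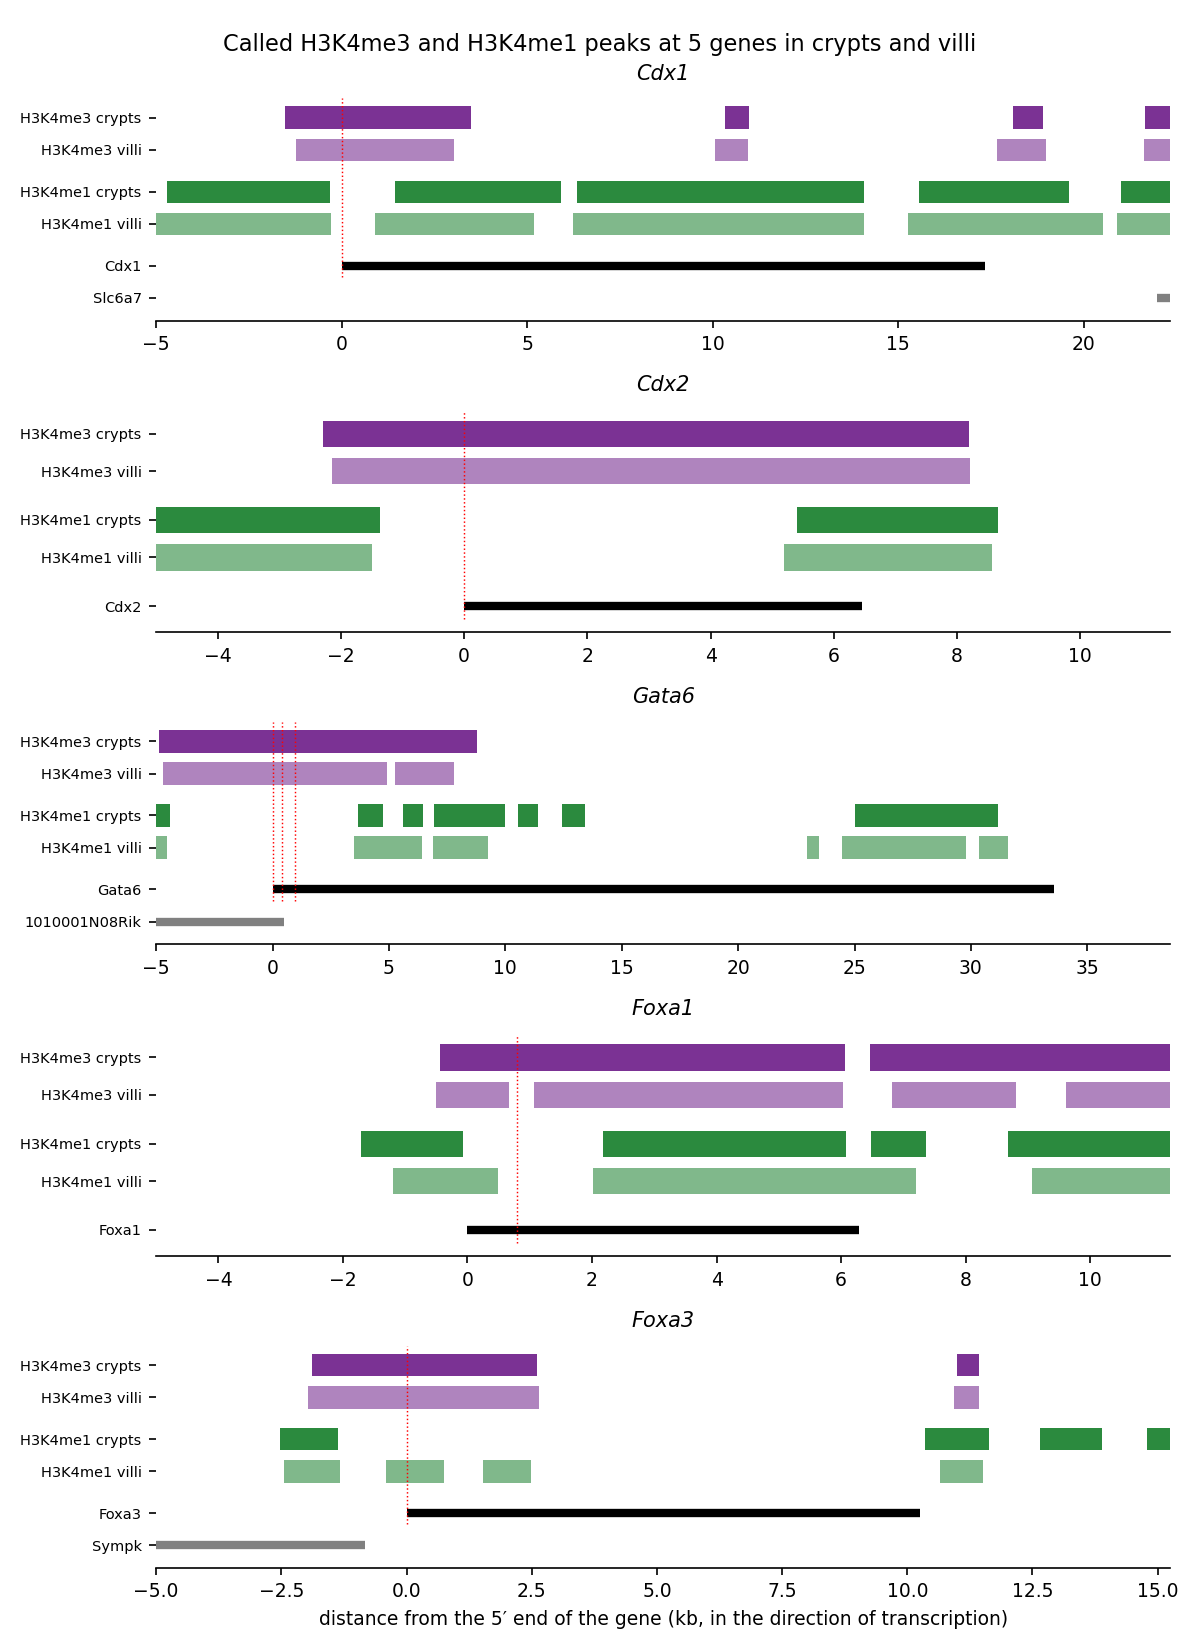
Called H3K4me3 (purple) and H3K4me1 (green) peaks in crypts (dark) and villi (light) at Cdx1, Cdx2, Gata6, Foxa1 and Foxa3, drawn by distance in kb from the 5′ end of the gene in the direction of transcription and clipped at the window. Red dotted lines are coding start sites, black bars the gene and grey bars a neighbour. The crypts H3K4me3 peaks of Gata6 (13684 bp) and at the start site of Foxa1 (6504 bp) appear as 2 pieces each in villi.

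GATA6, a zinc finger factor of crypt and villus epithelium, is encoded on the plus strand at chr18:11052064-11085635, with 3 coding start sites within 980 bp. In crypts 1 H3K4me3 peak of 13684 bp (score 445) covered all 3. In villi 2 peaks of 9608 bp (score 341) and 2530 bp (score 21.9) lay within that stretch, and all 3 start sites were under the first. With peaks under 1 kb apart merged, the villi domain measured 12509 bp, beside 13684 bp in crypts. No H3K4me1 lay within 1 kb of a start site in either fraction. H3K4me1 peaks of 873 bp and 993 bp in the gene body, with scores of 10.9 and 14.5, were in the crypts list only, and a 515 bp peak further along (score 13.5) was in the villi list only. The transcript 1010001N08Rik starts on the opposite strand inside the same H3K4me3 domain, and its share of the signal cannot be told apart from that of Gata6.

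HNF4A, a nuclear receptor that sustains enterocyte genes, is encoded on the plus strand at chr2:163506808-163572910 and has a distal first start site and a second group of start sites 40379 to 43275 bp downstream. Both were marked in both fractions. At the first start the H3K4me3 peak was 2845 bp in crypts (score 441) and 2606 bp in villi (score 229). At the second it was 5783 bp (score 344) and 5599 bp (score 391). By rank within the list the first start had the higher score in crypts (89.2% of peaks lower, against 76.4% for the second) and the second start in villi (96.8% lower, against 72.2% for the first). The ranks of the 2 promoters were thus in opposite order in the 2 lists, with 1 library of each and no test.

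Between them lay another broad H3K4me3 peak, 4680 bp wide in crypts and 4402 bp wide in villi, which covers the start site of the antisense transcript Hnf4aos. It sat inside the largest H3K4me1 domain of crypts at these genes, of 17301 bp, matched by 17305 bp in villi. At the first start site the H3K4me1 lists differed. In crypts a peak of 4098 bp ended 90 bp upstream of the start site and another of 1004 bp began 1396 bp downstream, whereas in villi 1 peak of 6487 bp (score 13.8) ran through it. Of the first promoter window printed above, the one with the AGATAA match, H3K4me1 covered 37.3% in crypts and 100% in villi. Of the second, with both GTTAAT copies, it covered 54.0% and 45.3%. A peak past the 3′ end of Hnf4a was 667 bp in crypts and 1344 bp in villi for H3K4me3 (score 11.7 and 38.3), the other pair that was over 1.5-fold wider in villi.

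HNF4G, the paralogue that is largely an enterocyte factor, is the longest of the 8 genes, on the plus strand at chr3:3508030-3658052, with coding start sites 126120 bp apart. Its first start had H3K4me3 peaks of 2653 bp in crypts (score 401) and 2761 bp in villi (score 149), and its second start peaks of 5217 bp (score 275) and 6209 bp (score 158). The first start ranked above 84.4% of the list in crypts and 54.8% in villi, and the second above 65.7% and 56.8%. An intronic peak of 870 bp in crypts was 1241 bp in villi. A 333 bp peak near the 3′ end, with a score of 13.4, was the only H3K4me3 peak of the 8 windows that was in the villi list and overlapped none in crypts.

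H3K4me1 over Hnf4g was more broken up in villi, with 23 peaks over 24.2% of the window, than in crypts, with 20 peaks over 31.3%. The largest crypts peak, 8661 bp in the intron before the second start, corresponded to pieces of 2838 bp and 3280 bp in villi. Of the 1-to-1 pairs of H3K4me1 peaks at all 8 genes, 7 of 30 were over 1.5-fold narrower in villi and 0 were over 1.5-fold wider, where 11.1% and 10.1% of all pairs were. Hnf4g held 4 of these 7 pairs and Gata6, Foxa2 and Foxa3 1 each. The median log2 width ratio of the 30 pairs was -0.28, beside -0.01 over all 38608 pairs. The single H3K9me3 peak of the 8 windows, 2132 bp at chr3:3565632-3567763 with a score of 12.7, lay in an intron of Hnf4g, between H3K4me1 peaks and far from both start sites. It was in the crypts list only, and 44.2% of that list scored lower.

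**Figure D4:**
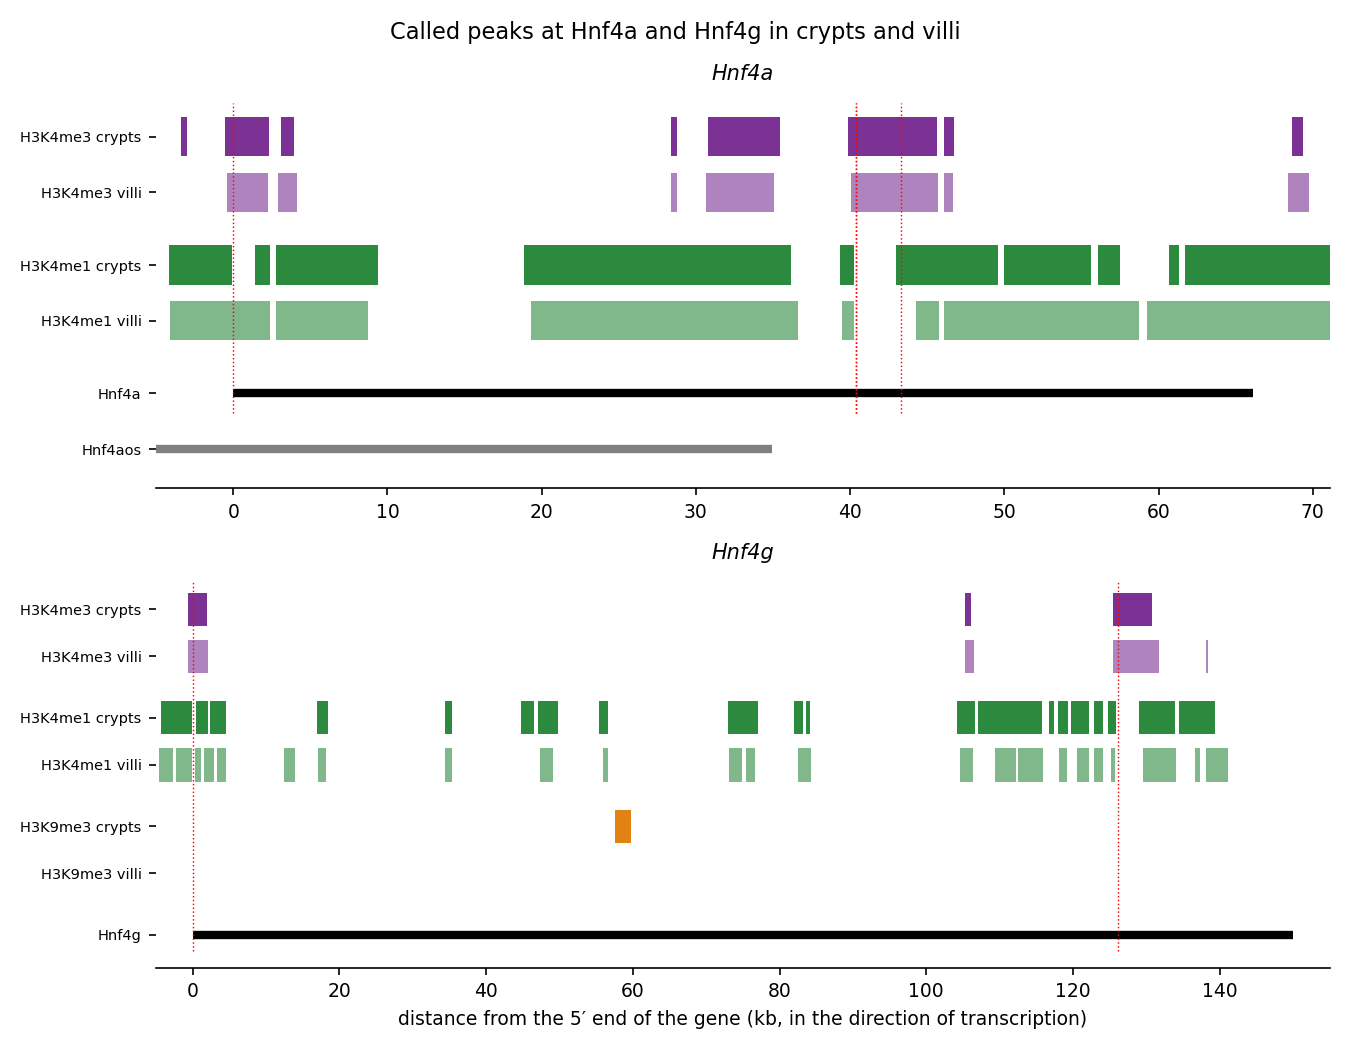
Called peaks of H3K4me3 (purple), H3K4me1 (green) and H3K9me3 (orange) in crypts (dark) and villi (light) at Hnf4a and Hnf4g, by distance in kb from the 5′ end of the gene and clipped at the window. Red dotted lines are coding start sites, black bars the gene and the grey bar Hnf4aos. Each group of start sites was under H3K4me3 in both fractions, and H3K4me1 at Hnf4g took up 31.3% of the window in crypts and 24.2% in villi.

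FOXA1, which with FOXA2 acts in goblet and enteroendocrine cells of the gut, is encoded on the minus strand at chr12:57540628-57546916. In crypts an H3K4me3 peak of 6504 bp (score 219) ran over the start and nearly the whole gene, and a second peak of 5550 bp (score 151) lay downstream. In villi each of them was called as 2 pieces, of 4963 bp and 1178 bp (scores 181 and 89.5) at the gene and of 1981 bp and 2358 bp (scores 134 and 37.1) downstream. The coding start site lay between the pieces, so that Foxa1 had the only 1 of the 16 coding start sites of these genes that was under H3K4me3 in crypts and not in villi, although both pieces were within 1 kb of it. Once peaks under 1 kb apart were merged, H3K4me3 at Foxa1 was a single domain, 12450 bp wide in crypts and 12469 bp wide in villi. Of the printed promoter window, which holds the overlapping FOXA and HNF4 letters, H3K4me3 covered 100% in crypts and 39.7% in villi.

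FOXA3, best known from liver and gut endoderm, is encoded on the minus strand at chr7:19013284-19023538. Its H3K4me3 peak was 4498 bp in crypts (score 424) and 4609 bp in villi (score 349), and it also covers the start site of Sympk, a gene of RNA 3′ end processing that is read the other way, so the 2 promoters cannot be told apart. H3K4me1 at Foxa3 had a Jaccard index of 0.307 within the window (0.620 to 0.933 at the other 7 genes). The window's edge lowered this value only in part. A crypts peak of 4318 bp reached into the window with its end, while its villi counterpart ended 5286 bp from the gene. Peaks inside the window without a counterpart, given next, lowered the index as well. A peak of 1153 bp (chr7:19022799-19023951, score 18.8) covered the start site in villi and another of 962 bp lay in the gene, and neither had a counterpart in crypts. Of the printed Foxa3 window H3K4me1 covered 0% in crypts and 100% in villi. A 1243 bp peak downstream was in crypts only. With a promoter of 1 kb on either side, Foxa3 was thus the only gene of the 8 with promoter H3K4me1 in 1 fraction, and 6 of 8 had it in villi and 5 of 8 in crypts (all genes 56.1% and 57.9%, and 3.95% in villi only). Cdx2 and Gata6 had none in either. With 2 kb on either side the difference at Foxa3 was lost, since a crypts peak lay from -2530 to -1362 bp of its start site, Cdx2 had promoter H3K4me1 too, and the counts were 7 of 8 in both fractions. The villi peak over the Foxa3 start site itself does not depend on this choice.

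Foxa2 was the only one of the 8 genes with H3K27me3 in its window. FOXA2 is encoded on the minus strand at chr2:148042877-148046969, with 3 coding start sites within 1021 bp. Its start-site H3K4me3 peak was 2773 bp in crypts and 2539 bp in villi, with the lowest score of the 8 genes in both, 75.5 (35.4% of the list lower) and 32.7 (25.3% lower), and no H3K4me3 peak of Foxa2 was in the top 50% of either list by score. An upstream H3K4me3 peak was 810 bp in crypts and 557 bp in villi. Another, of 1380 bp, lay downstream over the start site of the lincRNA 9030622O22Rik in crypts (chr2:148039008-148040387, score 33.0) and had no counterpart in villi. H3K4me3 covered 35.2% of the window in crypts and 22.0% in villi, and H3K4me1 covered 37.1% and 26.8%.

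H3K27me3 covered more of the window in villi (57.7%) than in crypts (21.0%). In crypts 1 peak of 2955 bp (chr2:148038016-148040970, score 18.2) lay over the lincRNA start, 1907 bp past the 3′ end of Foxa2. In villi that peak was 3445 bp (score 31.5). The log2 width ratio of this pair was 0.22, beside a median of 0.32 over all 4736 1-to-1 pairs of H3K27me3 peaks. In villi 2 more peaks were called that had none opposite them in crypts. One of 1674 bp (chr2:148043557-148045230, score 18.4) lay in the gene body. The other, of 3053 bp (chr2:148046430-148049482, score 35.9), covered 2 of the 3 coding start sites and ranked 874 of 13797 in the villi list and 3 of the 7670 villi peaks without a crypts counterpart. The strength of this peak was part of the choice of Foxa2, so its ranks are a description only. The mark was therefore in the Foxa2 window in both fractions, and at the gene itself and its promoter in the villi list alone. All 4 peaks were in the top 50% of their list by score.

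**Figure D5:**
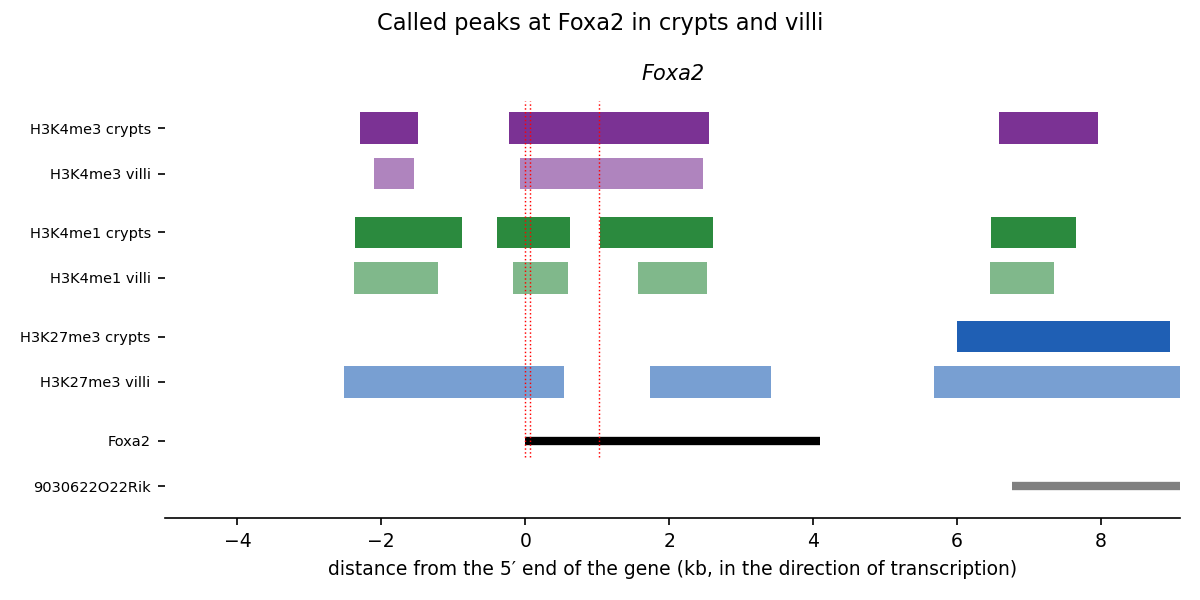
Called peaks of H3K4me3 (purple), H3K4me1 (green) and H3K27me3 (blue) at Foxa2 in crypts (dark) and villi (light), by distance in kb from the 5′ end of the gene and clipped at the window. Red dotted lines are the 3 coding start sites, the black bar Foxa2 and the grey bar the lincRNA 9030622O22Rik. H3K27me3 has 1 peak in crypts, downstream, and 3 in villi, of which 1 of 3053 bp reaches over the first start sites.

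The marks overlapped at Foxa2 in villi. Of the 3053 bp H3K27me3 peak, 38.2% lay under villi H3K4me3 peaks and 61.5% under H3K4me1 peaks. The first printed Foxa2 window was covered by H3K27me3 over 0% of its bases in crypts and 100% in villi, and by H3K4me3 over 90.3% and 39.7%. The second window, further into the gene, was covered by H3K4me3 over 100% in both and by H3K27me3 in neither. The third window was likewise under H3K4me3 over 100% in both, and under H3K4me1 over 100% in crypts and 0% in villi. At the lincRNA start the overlap was in crypts instead: the crypts H3K27me3 peak overlapped H3K4me3 over 46.7% of its length and the villi peak did so over 0%.

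A promoter H3K27me3 peak in villi only was present at 791 genes (3.62%), and in crypts only at 138 (0.631%). H3K4me3 and H3K27me3 at promoters of the same gene were called at 6.59% of all genes in crypts, none of them a member, and at 7.87% in villi, Foxa2 among them. The exact pattern of Foxa2 over the 8 lists, with promoter H3K4me3 and H3K4me1 in both fractions, H3K27me3 in villi only and no H3K9me3, was shared by 283 genes, Foxa2 included. Ordered by the score of the villi H3K27me3 peak, Foxa2 (35.9) was the third of them, after Actr5 (47.5) and Dctn3 (40.5) and before Fbxl2 (34.8) and Sorcs2 (31.8). Since a strong peak was part of the choice of Foxa2, its place in this order is no separate result. The villi H3K27me3 peak was 15156 bp at Actr5, 9523 bp at Dctn3, 4275 bp at Fbxl2 and 1044 bp at Sorcs2.

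Scraped villi can hold cells other than epithelium, and a called peak does not say whether the 2 marks were on the same cells. Of 6 lymphocyte markers, promoter H3K4me3 was called at 0 in crypts and 4 in villi (all genes 57.7% and 57.9%). These 4 were Ptprc, Cd3e, Cd3g and Cd8a (scores 10.8 to 21.9), while Cd2 and Cd79a had none. Of 5 stromal markers, 2 had it in crypts (Pdgfra and Vim, scores 22.7 and 15.1) and 3 in villi (with Col1a1, scores 11.7 to 32.9). Of 3 endothelial markers, none had it in crypts and Kdr in villi (score 24.0), and of 3 smooth muscle markers none had it in either. The 4 lymphocyte markers, Col1a1 and Kdr, and the longer villi H3K27me3 list, moved in the same direction as H3K27me3 at Foxa2, and their part in the result was not tested. In mixed tissue, more cells with the mark and more of it per cell cannot be told apart.

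At the other 7 genes the nearest H3K27me3 peak lay outside the window. It was 59454 bp from Cdx1 in crypts and 8497 bp in villi, where it lay in Pdgfrb, and 20159 bp from Cdx2 in crypts, where it was the 12788 bp domain of the pancreatic and duodenal factor gene Pdx1, and 13747 bp in villi, in Urad. It was 19634 and 20212 bp from Foxa3, 49397 and 46921 bp from Hnf4a, 92086 and 93319 bp from Foxa1, 205172 and 205260 bp from Gata6, and 1551968 and 1551413 bp from Hnf4g in crypts and villi. Just outside the 5 kb limit, an H3K4me3 peak lay upstream of Cdx2, 5542 bp from the gene in crypts (3782 bp wide) and 5155 bp in villi (4122 bp wide), whereas the most distant H3K4me3 peak inside the limit, at Slc6a7, was 4315 and 4281 bp from Cdx1.

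Among 15 other transcription factors of the intestine and gut endoderm, 14 had promoter H3K4me3 in both fractions (all genes 57.7% in crypts and 57.9% in villi). Cdx4, the CDX paralogue of the early embryo, had none. Of the GATA paralogues, Gata4 had a promoter peak of 10082 bp in crypts, wider than in villi (8784 bp) as at Gata6, whereas Gata5 had 6183 bp in crypts and 8062 bp in villi. Klf5, a factor of dividing crypt cells, had 13275 and 12915 bp. Promoter H3K27me3 was called at 2 of the 15 in crypts and 3 in villi, near the shares of all genes (13.1% and 16.1%). Onecut2 (3825 bp in crypts and 5320 bp in villi) and Pdx1 (12788 and 15703 bp) had it in both, so that Foxa2 differed from these 2 by its absence at the promoter in crypts. Gata4 had it in villi only, as a peak of 856 bp with a score of 10.5, close to the lowest score listed.

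Of 8 enterocyte genes known as targets of CDX, HNF4 and GATA factors (Sis, Lct, Cdh17, Vil1, Fabp1, Apoa1, Apoa4 and Alpi), all 8 had promoter H3K4me3 in both fractions (all genes 57.7% and 57.9%). None had promoter H3K27me3 (all genes 13.1% and 16.1%). At Lct, the lactase gene, the H3K4me3 peak was 3893 bp in crypts and 6239 bp in villi, and at Cdh17, an intestinal cadherin, it was 8503 and 8655 bp. The median H3K4me3 cover of these 8 windows was 20.3% in crypts and 23.3% in villi, higher in villi, while that of the 8 factor genes was lower in villi (28.8% and 25.8%). Without replicates neither shift can be set against an error.

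Cover of the start sites by H3K4me1 was close to that of other genes. Of the 16 coding start sites of the 8 genes, 16 lay under H3K4me3 in crypts and 15 in villi (all coding start sites 50.7% and 50.2%), and of these 3 and 4 also lay under H3K4me1 (all start sites under H3K4me3, 21.4% and 22.5%). Of the 3 in crypts, 2 belonged to Foxa2 and 1 to Hnf4a. Of the 4 in villi, 2 belonged to Foxa2, 1 to Hnf4a and 1 to Foxa3.

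The peaks of these genes also differed in base composition. The choice of genes did not use it directly, but it was measured inside the same called peaks and depends on their positions and widths. The median H3K4me3 peak held 42.2 CpG per kb in crypts and 42.3 in villi. The crypts start-site peaks of Foxa2 (63.8 CpG per kb) and Foxa1 (50.1) were above that, Foxa3 (42.0) was at it, and Cdx2 (35.8), Gata6 (35.2) and Cdx1 (33.7) were below. In villi Cdx2 (36.0) and Cdx1 (36.7) were again below. Gata6 (44.0) was above the median there, over a narrower called peak, so its place depends on the peak edges. Both start-site peaks of Hnf4a (13.0 and 15.6) and both of Hnf4g (15.1 and 3.45) were far below, and only 0.267% of the crypts peaks held fewer CpG per kb than the second start of Hnf4g. The villi H3K27me3 peak at the Foxa2 start sites held 36.4 CpG per kb, beside a median of 15.4 over that list, and 90.9% of the list held fewer. Per kb of the crypts start-site H3K4me3 peak Foxa2 held the most CpG of the members. In the printed windows of equal length Foxa1 held 26 CpG, the 3 windows of Foxa2 held 12, 23 and 13, Foxa3 held 22, Cdx2 18 and both of Hnf4a 4.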

How the data were processed

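Peak lists of H3K4me3, H3K4me1, H3K27me3 and H3K9me3 from mouse crypts and villi were used, 8 lists with 1 library each. The H3K9me2 lists, of 6 crypts and 3 villi regions, had 0 regions in the member windows and were left out, and the inputs were not used here. The authors mapped reads to mm10 and, for the spike-in, dm6 (bowtie 1.1.2), discarded duplicates and reads of both genomes, and called peaks with MACS2 2.1.1 at a p-value of 1e-10. Column 5 of the deposited lists, which have no header, was at least 10 throughout and is read here as the authors' −log10 p-value, though it could be a q-value. The spike-in does not scale it, and it depends on the depth of a library, which is unknown.

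Gene bodies and coding start sites came from GENCODE M21 on GRCm38, the assembly mm10 names. Peaks were joined to gene bodies extended by 5 kb and to promoters of 1 kb on either side of start sites with Python 3.11.15, NumPy 2.4.6 and pandas 2.3.3. An overlap of 1 bp counted as shared. Widths were compared for 1-to-1 pairs, where a ratio over 1.5-fold was counted. Promoter H3K4me3 widths were compared for the widest promoter peak of each gene, whether or not it was in such a pair. The same counts over 21853 protein-coding genes are the background. Since each group is 1 library, nothing was tested between groups. The code was tested on simulated peaks with known overlaps. Coordinates are 1-based. Promoter sequences came from RefSeq (GRCm38.p6). Figures were drawn with Matplotlib 3.10.9.

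The members and lists were chosen with earlier results of these data known. Named are the members, the genes of the other lists, coding genes that start inside a member window, and the 5 highest-scoring genes with the pattern of Foxa2. One gene of the list of other transcription factors is not reported here. Pdgfrb and Urad were named after their peaks were seen, as were noncoding neighbours. Alternatives covered the window, the promoter, a stricter list (top 50% by score), merged peaks (gaps under 1 kb) and a reciprocal overlap of 50%.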

Additional observations from a re-analysis of the deposited data

How the results depend on the processing

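Of 104 counts recomputed under an alternative, 88 stayed within 1.5 times the reported value, and among the members with promoter peaks of each list no count left that range, although with a promoter of 2 kb on either side the H3K4me1 counts of 5 in crypts and 6 in villi both became 7. Using the top 50% of each list by score left 10 of 24 crypts and 11 of 26 villi H3K4me3 peaks in the windows, and all 10 and 11 had a counterpart (as reported, 22 and 25). The same choice left 33 of 56 crypts and 30 of 54 villi H3K4me1 peaks, with 33 and 29 matched (51 and 50), and removed the H3K9me3 peak of Hnf4g, leaving 0 peaks and 0 members. Merging peaks under 1 kb apart lowered the crypts H3K4me1 peaks to 33, of which 32 had a counterpart. With the gene body alone, H3K27me3 in crypts fell from 1 peak and 1 member to 0 and 0. With 10 kb on either side, H3K27me3 in villi rose from 3 peaks to 5 and from 1 member to 2, since 2 peaks upstream of Cdx1, the nearer of them in Pdgfrb, then count for Cdx1. No paired analysis was possible because each group has 1 library and no result comes from a test, and no replicate could be left out. Depth and replicate spread are unknown, so a peak missing from a list may have been below the authors' threshold.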
